A study of Mus musculus with 2 samples.

Results

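The genes described here mark the leukocytes of the heart, the resident macrophages first. They were chosen by symbol from known roles, 39 of 55536 annotated genes. By role the set was split into 12 resident macrophage, 5 recruited myeloid, 4 antigen presenting, 8 shared leukocyte and 10 lymphoid genes. The shared leukocyte genes are found in several leukocyte types, macrophages among them, and not each in all leukocytes. Total RNA had been sequenced from the hearts of adult males, 8 to 10 months old, of a cross between 5xFAD and CAST mice. The 5xFAD line carries transgenes for mutant human amyloid precursor protein and presenilin, driven by the neuronal Thy1 promoter, and it is used to model brain amyloid. CAST mice are an inbred strain of wild origin. All samples form 1 group of 2 libraries, called library 1 and library 2 here, with no control group and no second genotype, age or treatment. Each library has a tissue sample of its own in the labels, but both carry 1 donor identifier, and their spread may therefore be technical.

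As background, the healthy heart holds macrophages between its muscle cells and along its vessels. Many of them are seeded before birth and renew locally under signals through the CSF1 receptor, while others are replaced from blood monocytes that carry CCR2. They clear dead cells and debris, and they make the complement protein C1q, which binds immune complexes and cell remnants. A part of them also carries MHC class II proteins, which show peptides to CD4 T cells.

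With 1 group there is no contrast between conditions, and the data show which of these genes were expressed, how highly, and how far the libraries differ. Library 1 held 39819960 and library 2 held 37060119 expected counts, of which the 39 genes held 8410 and 8471, or 0.0211% and 0.0229%. Levels are TPM, which is scaled for transcript length and library total, given per library or as mean ± SD (n = 2). Values come from the first of 2 deposited quantifications of the same libraries, and values of the second are named as such. Differences between libraries are ratios of expected counts, library 2 over library 1, scaled by the library totals, with an exact (Clopper-Pearson) 95% interval that covers counting error only. Such a ratio compares these libraries and not conditions. In bulk tissue, fewer cells of a type and less RNA per cell cannot be told apart.

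In both libraries, 25 of the 39 genes reached 1 TPM, or 64.1%, against 48.9% of the 22028 protein-coding genes. The 14 others were Timd4, Cx3cr1 and Trem2 among the resident macrophage genes, Ccr2, S100a8 and S100a9 among the recruited myeloid genes, Aif1, and Cd3e, Cd3g, Cd4, Cd8a, Nkg7, Ms4a1 and Cd79a among the lymphoid genes. All 4 antigen presenting genes passed. The resident macrophage genes summed to 57.5 TPM in library 1 and 60.7 TPM in library 2, and the antigen presenting genes to 47.4 and 52.3. The recruited myeloid genes summed to 33.5 and 38.8 TPM, nearly all of it Lyz2. The shared leukocyte genes summed to 22.4 and 22.0 TPM. The lymphoid genes summed to 21.4 and 15.1 TPM, of which Fyb held most in library 1. In the second quantification the lymphoid sums were 10.5 and 13.5 TPM, so the direction between libraries was the opposite.

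**Figure D1:**
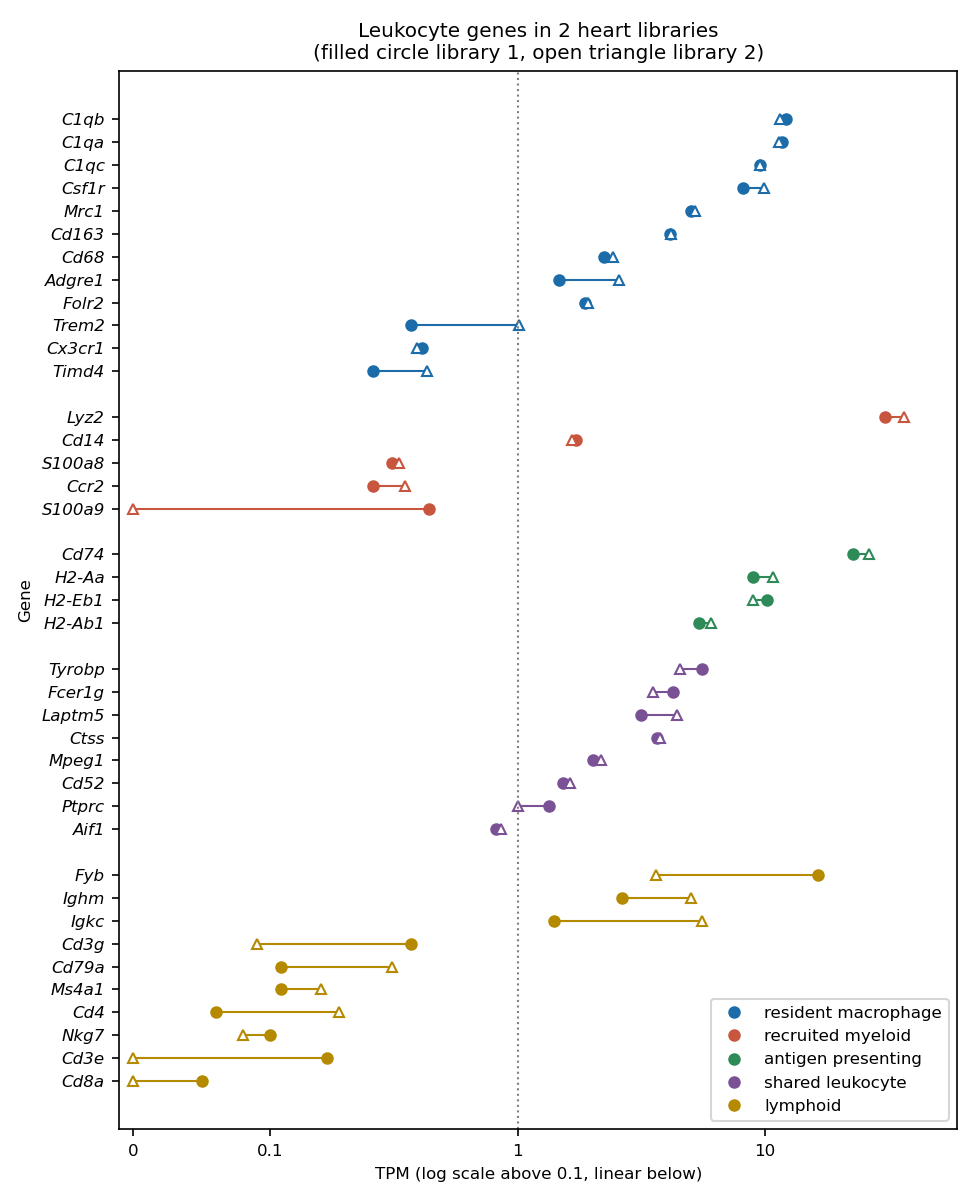
TPM of the 39 genes in library 1 (filled circles) and library 2 (open triangles), on a log axis above 0.1 and a linear axis below, coloured by gene group, with a dotted line at 1 TPM. C1qa, C1qb, C1qc, Csf1r, Lyz2 and the antigen presenting genes lie above 5 TPM in both libraries, and the T cell genes lie below 0.4.

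For scale, 6 endothelial markers summed to 416 and 423 TPM in library 1 and library 2, and 6 fibroblast markers to 194 and 183. All 6 cardiomyocyte markers, Myh6 and Myl2 among them, were between 296 and 7558 TPM on average, so the libraries carried the defining genes of heart tissue. Lists of unequal genes do not rank cell numbers.

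The C1q genes, which encode the chains of the complement protein that starts the classical pathway, had the highest means of the resident macrophage genes. C1qb stood at 12.2 TPM in library 1 and 11.6 in library 2. C1qa stood at 11.7 and 11.4 TPM. C1qc stood at 9.60 TPM in both libraries. Their count ratios were 0.957 (95% interval 0.827 to 1.11), 0.983 (0.845 to 1.14) and 1.01 (0.867 to 1.18), so every interval included 1. The ranges of C1qb and C1qa overlapped, and that of C1qc lay below both. C1qa held 0.970 ± 0.0190 of the C1qb level. The 3 genes are neighbours on chromosome 4 (mm10, minus strand, 136880129 to 136898803) and span 18675 bases.

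The 250 bases upstream of the C1qb start are shown, as the gene with the highest mean of this group. They are given as in RefSeq (GRCm38.p6, chr4:136886201-136886450, minus strand, 5′ to 3′). Capitals mark the reverse complement of AGGAAGT, a core sequence bound by the myeloid transcription factor PU.1, 53 to 47 bases before the start.

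C1qb: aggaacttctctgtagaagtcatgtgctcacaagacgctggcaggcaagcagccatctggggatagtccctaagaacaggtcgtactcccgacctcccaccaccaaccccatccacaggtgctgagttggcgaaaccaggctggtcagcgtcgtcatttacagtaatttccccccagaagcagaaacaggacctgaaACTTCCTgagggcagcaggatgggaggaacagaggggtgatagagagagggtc

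The letters AGGAAGT, read on both strands, occur in 7.69% of 32851 promoter windows of this length. They occur upstream of 9 of the 27 genes described here that have an entry and lie outside chromosome 18. A gene was counted when any of its windows matched, so the percentage is of windows and the count of genes. These 9 were C1qb, C1qc, Folr2, Mrc1, Lyz2, Ptprc, S100a8, Cd3e and Cd79a. The letters were thus found upstream of T cell and B cell genes as well as of macrophage genes. A match is a description of the letters and was not tested as a binding site. Spi1, which encodes PU.1, stood at 0.90 and 0.88 TPM.

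Csf1r, the receptor through which macrophages receive their survival signal, followed C1qc with overlapping ranges at 8.20 TPM in library 1 and 9.96 in library 2. Its counts were 961 and 986, a ratio of 1.10 (1.01 to 1.21), so library 2 was slightly higher. Exons of Csf1r share 873 bases with Hmgxb3 on the opposite strand, which stood at 4.49 and 4.16 TPM. The strand setting of the quantification is not given in the sources used here. The authors' posterior SD of the count, a measure of uncertain read assignment, was 0 for both genes in both libraries.

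The scavenger and endocytic receptors came next and were nearly equal in both libraries. Mrc1, the mannose receptor of tissue macrophages, stood at 5.03 and 5.21 TPM. Cd163, the receptor for haemoglobin bound to haptoglobin, stood at 4.12 and 4.18. The lysosomal Cd68 stood at 2.23 and 2.44 TPM and the folate receptor Folr2 at 1.87 and 1.93. All 4 count ratios lay between 1.03 and 1.13 with intervals that included 1. In the order of means, Csf1r, Mrc1 and Cd163 each lay apart from the next without overlap, while Cd68, Adgre1 and Folr2 overlapped. Exons of Folr2 share 975 bases with an antisense gene, Gm10602, listed at 1.23 and 1.09 TPM. The posterior SD of the Folr2 count was 0 in both libraries.

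Adgre1, which encodes the F4/80 antigen, stood at 1.47 and 2.57 TPM. Its counts were 134 and 162, a ratio of 1.30 (1.03 to 1.65). TPM also depends on the lengths of the transcripts to which reads were assigned, and the second quantification listed 2.10 and 1.91 TPM at a count ratio of 1.30. The sign of the difference in TPM was thus reversed between quantifications, while the count ratio was not.

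The remaining resident macrophage genes were at or below about 1 TPM. Trem2, a lipid-sensing receptor of phagocytes that signals through Tyrobp, stood at 0.37 and 1.01 TPM, from 14 and 33 counts. Its ratio was 2.53 (1.32 to 5.12), and 2.11 (1.23 to 3.70) in the second quantification. Cx3cr1, the fractalkine receptor, stood at 0.41 and 0.39 TPM. Timd4, a phosphatidylserine receptor that marks long-lived resident macrophages, stood at 0.26 and 0.43, from 18 and 28 counts, a ratio of 1.67 whose interval (0.892 to 3.21) included 1. The ranges of Trem2, Cx3cr1 and Timd4 overlapped.

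A further 17 genes known from resident macrophages, outside the 39, gave 13 above 1 TPM in both libraries. Several of these are not particular to macrophages: Selenop at 103 ± 5.02 TPM, Gas6 at 43.3 ± 1.96 and Stab1 at 18.1 ± 0.757 are also made by other heart cells. Pf4, a chemokine of platelets and macrophages, stood at 9.58 and 14.3 TPM. Of the 17, 6 had intervals above 1 and 1, Gas6, below it, against 9.77% and 7.87% of 10950 genes in the count range of the 39. In the second quantification the intervals of Gas6 (0.920 to 1.009), Fcna (0.969 to 1.97) and Igf1 (0.976 to 1.27) included 1, and that of Selenop (1.001 to 1.07) did not. The receptor tyrosine kinase Mertk, which takes up dying cells, stood at 1.39 and 1.47 TPM, and Lyve1, a hyaluronan receptor also found on lymphatic vessels, at 3.32 and 4.59.

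The ligands for these receptors were measured too, in a list of 11 CSF1 and chemokine genes of which 5 passed 1 TPM in both libraries. Csf1 stood at 16.5 and 15.1 TPM and Il34, the other ligand of Csf1r, at 2.65 and 1.39. Cx3cl1, the ligand of Cx3cr1, stood at 2.41 and 2.91 TPM against 0.41 and 0.39 for its receptor. The CCR2 ligands Ccl2 and Ccl7 had 12 and 5 counts and 8 and 2 counts. Cxcl12, a chemokine of stromal and endothelial cells, was the highest at 40.3 and 43.6 TPM.

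Around C1q, 12 of 15 complement genes passed 1 TPM in both libraries. C3, the central complement protein, stood at 28.9 and 30.0 TPM. Serping1, the C1 inhibitor, stood at 24.4 and 23.1. The membrane inhibitor Cd59a stood at 18.8 and 21.3. Of the proteases that bind C1q, C1s1 stood at 8.52 and 9.13 TPM and C1ra at 4.49 and 4.69. C6 was at 0 counts in library 1 and 18 in library 2. Intervals above 1 were found for 6 of the 15 and below 1 for 0, against 9.77% and 7.87% of the same 10950 genes. Of the 6, Cfd is also an adipocyte marker, and Cfb (0.979 to 1.66) and Cd59a (0.981 to 1.17) had intervals that included 1 in the second quantification.

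Among the recruited myeloid genes, Lyz2 stood far above the rest. Lyz2 encodes the lysozyme of macrophages, monocytes and neutrophils, and it was the highest of all 39 genes at 30.7 TPM in library 1 and 36.5 in library 2. Its counts were 1239 and 1384, a ratio of 1.20 (1.11 to 1.30), so library 2 was higher by more than counting error. The Lyz2 transcript is 95.8% identical to that of its neighbour Lyz1, which stood at 2.58 and 3.81 TPM. The posterior SD of the Lyz2 count was only 1.46 in library 1 and 1.77 in library 2. The second quantification gave 1.06 times the counts of the first for Lyz2 and 0.720 times for Lyz1. The split between them is thus less certain for Lyz1 than for Lyz2. Cd14, the co-receptor for lipopolysaccharide, stood at 1.72 and 1.66 TPM with a ratio of 0.879 (0.635 to 1.21).

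The other 3 were low. Ccr2, the chemokine receptor of recruited monocytes, had 31 and 40 counts, 0.26 and 0.35 TPM, and a ratio of 1.39 (0.846 to 2.29). Mrc1 exceeded Ccr2 by 19.3-fold in library 1 and 14.9-fold in library 2 on the TPM scale. The neutrophil alarmins S100a8 and S100a9, which form calprotectin, had 4 and 4 counts and 6 and 0 counts. At this depth a count of 0 allows up to 3 counts. Of 10 further neutrophil and monocyte genes, 5 (Ly6g, Cxcr2, Mpo, Elane and Chil3) were at 0 counts in both libraries in the first quantification, although the second gave Cxcr2 17.4 and 21.8. Of the 10, only Ly6c2, a surface protein of inflammatory monocytes, passed 1 TPM in both, at 2.04 and 1.29. It had 41 and 35 counts with a posterior SD of 3.4 and 2.69. The second quantification gave it 1.66 times the counts of the first, so its level is uncertain.

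Of the antigen presenting genes, Cd74 lay above the C1q genes in both libraries and H2-Ab1 below them. Cd74, the invariant chain that guides class II proteins to the endosome, stood at 22.8 TPM in library 1 and 26.4 in library 2. Its counts were 892 and 985, a ratio of 1.19 (1.08 to 1.30). The class II alpha chain H2-Aa stood at 8.99 and 10.8 TPM with a ratio of 1.26 (1.08 to 1.48). Its partner, the beta chain H2-Ab1, stood at 5.40 and 6.08 with a ratio of 1.23 (1.002 to 1.51). Library 2 was thus higher for these 3 genes, narrowly so for H2-Ab1. The beta chain H2-Eb1 went the other way, at 10.2 and 8.97 TPM, and its ratio of 0.937 had an interval that included 1 (0.795 to 1.10). The ranges of H2-Aa and H2-Eb1 overlapped, and Cd74 lay above and H2-Ab1 below both. Cd74 exceeded H2-Aa 2.49-fold ± 0.0714.

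The 3 class II chain genes lie on chromosome 17 (mm10) between 34257689 and 34316674. The X and Y boxes of class II promoters bind the RFX complex and NF-Y, which together recruit the coactivator encoded by Ciita. The 250 bases upstream of H2-Aa (GRCm38.p6, RefSeq, chr17:34287824-34288073, minus strand) and of H2-Eb1 (chr17:34305617-34305866, plus strand) are shown because both hold the pair in the same order. Capitals mark GCAACT, taken from the X box, and GATTGG, the Y box, with its reverse complement CCAATC where it occurs.

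H2-Aa: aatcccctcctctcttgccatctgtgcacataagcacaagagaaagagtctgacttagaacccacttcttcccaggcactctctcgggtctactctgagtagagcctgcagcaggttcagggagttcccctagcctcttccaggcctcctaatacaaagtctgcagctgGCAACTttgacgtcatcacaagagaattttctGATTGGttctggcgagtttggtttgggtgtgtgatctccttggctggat

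H2-Eb1: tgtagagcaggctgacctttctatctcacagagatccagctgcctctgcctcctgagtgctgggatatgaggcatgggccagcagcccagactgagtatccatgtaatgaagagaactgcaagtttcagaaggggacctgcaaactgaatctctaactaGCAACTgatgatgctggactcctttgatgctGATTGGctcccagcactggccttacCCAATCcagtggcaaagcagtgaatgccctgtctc

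In H2-Aa the GCAACT letters lie 81 to 76 and the GATTGG letters 49 to 44 bases before the start. In H2-Eb1 they lie 91 to 86 and 60 to 55 bases before it, with a further match on the opposite strand at 35 to 30. Searched on both strands, GCAACT occurs in 9.01% and GATTGG in 14.6% of promoter windows, and GCAACT followed by GATTGG within 40 bases in 40 of 32851, or 0.122%. Of the 27 genes with an entry, these 2 held the pair, counted by gene and not by window. H2-Ab1 has no entry and Cd74 lies on chromosome 18, so neither is among the 27. The motifs were chosen with the sequences in view.

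The remaining class II pathway was split by level. Of 14 further genes, 6 passed 1 TPM in both libraries: the endosomal protease Lgmn at 20.1 and 21.7, the thiol reductase Ifi30 at 3.26 and 3.31, the peptide exchange chain H2-DMa at 1.23 and 1.41, and the RFX subunits Rfxank, Rfxap and Rfx5 at 5.32 and 7.22, 6.32 and 5.86, and 3.42 and 3.57. Ciita itself was low, at 0.11 and 0.18 TPM from 19 and 24 counts. The costimulatory Cd86 had 12 and 30 counts, a ratio of 2.69 (1.34 to 5.76), and Cd80 had 14 and 9. Dendritic cell markers gave 1 of 7 above 1 TPM, Zbtb46, which endothelial cells also express, at 3.04 ± 0.0566. Clec9a, Xcr1 and Flt3 had at most 7 counts in a library.

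The transcripts behind Cd74 differed between the libraries. Cd74-201, of 1224 bases, stood at 14.9 and 15.1 TPM, and its ratio of 1.02 (0.908 to 1.16) included 1. The longer Cd74-202, of 1410 bases, stood at 7.64 and 11.01 TPM, with a ratio of 1.46 (1.26 to 1.68), and 1.61 (1.41 to 1.84) in the second quantification. The difference in Cd74 thus lay in the longer transcript, which held 33.5% of the gene's TPM in library 1 and 41.7% in library 2. Transcript counts are estimates, and such shifts were not limited to Cd74: in the first quantification Cd163-202 had 0 counts in library 1 and an interval of its ratio above 35.6, with Cd163-201 at 0.757 (0.657 to 0.871), while the interval of Cd163 as a gene included 1.

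For H2-Eb1 the leading transcript is annotated as a target of nonsense-mediated decay. H2-Eb1-205 held 68.4% of the gene's TPM in library 1 and 59.1% in library 2, and 80.8% and 80.5% in the second quantification. Its second exon is 53 bases shorter at its start than that of the protein-coding H2-Eb1-203, which stood at 0.63 and 1.35 TPM. A retained-intron entry, H2-Eb1-204, held a further 25.3% ± 0.816 in the first quantification, but 4.27% and 0% in the second. Most of the H2-Eb1 level thus rested on entries not annotated to give the full beta chain. The mice were part CAST and the reference was mm10, and the effect of strain variants on the class II values was not tested. Of the 4 antigen presenting genes, H2-Ab1 had the counts that differed most between quantifications. The second quantification gave it 1.41 times the counts of the first, against a median of 1.11 over 13685 protein-coding genes (5th to 95th percentile 0.992 to 1.30).

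The 8 shared leukocyte genes lay between 0.84 and 5.08 TPM on average, with no difference between libraries beyond counting error. Tyrobp, the adaptor that carries signals of TREM2 and related receptors, stood at 5.59 and 4.56 TPM. Fcer1g, the common chain of Fc receptors, stood at 4.26 and 3.52. Both were lower in library 2 by amounts within counting error, with ratios of 0.825 (0.589 to 1.15) and 0.836 (0.592 to 1.18). Tyrobp exceeded its partner Trem2 15.1-fold in library 1 and 4.51-fold in library 2.

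The lysosomal and membrane genes followed. Laptm5, a lysosomal protein of blood cells, stood at 3.15 and 4.43 TPM but had nearly equal counts of 217 and 213. The protease Ctss, which trims the invariant chain, stood at 3.65 and 3.78 and the pore-forming Mpeg1 at 2.02 and 2.18. Cd52, a small surface glycoprotein, stood at 1.53 and 1.63 TPM. Ptprc, which encodes CD45, stood at 1.34 and 1.00, and Aif1, which encodes IBA1, at 0.82 and 0.86 from 18 and 15 counts. None of the 8 intervals excluded 1. By the mean of both libraries, the leading transcript of Ptprc was Ptprc-204 in the first quantification and Ptprc-203 in the second. This was the only such disagreement among the 25 genes with a mean of at least 1 TPM. In library 2 alone, the first quantification put 100% of Tyrobp on Tyrobp-201, while the second put 81.8% on Tyrobp-202.

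Of 11 genes of signalling through these adaptors, 6 passed 1 TPM in both libraries. The Fc receptors Fcgr3 and Fcgr2b stood at 2.47 and 3.08 TPM (Fcgr3) and 1.79 and 1.74 TPM (Fcgr2b). The kinase Syk was at 5.75 and 5.20 TPM and Lyn at 5.80 and 4.65. Sirpa, the receptor for the CD47 signal that restrains phagocytes, stood at 9.21 and 8.25. Hcst, the adaptor DAP10, was at 0 counts in both libraries. Siglech had 11 and 2 counts.

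T cell and natural killer cell genes were near the limit of detection. Cd3e, Cd3g, Cd4, Cd8a and Nkg7 encode signalling subunits of the T cell receptor complex, coreceptors and a granule protein. Together they had 19 counts in library 1 and 13 in library 2, and none reached 0.4 TPM. Cd4, which some macrophages also carry, was the only one to reach 10 counts. The second quantification gave Cd8a 23.2 and 21 counts on Cd8a-202 against 5 and 0 in the first, at 0.207 and 0.206 TPM. Of 14 further T and natural killer cell genes, 0 passed 1 TPM in both libraries, and the receptor constant regions Trac, Trbc1 and Trbc2 had at most 6 counts. Of these 14, Cd3d had 29.4 and 14.3 counts in the second quantification.

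The immunoglobulin genes were higher in library 2, and Igkc had the highest count ratio of the 33 genes with at least 10 counts in a library. Igkc, the constant region of the kappa light chain (chromosome 6, 70726435 to 70726966, plus strand, mm10), stood at 1.40 TPM in library 1 and 5.57 in library 2. Its counts were 20 and 75, a ratio of 4.03 (2.43 to 6.97). Ighm, the heavy chain of IgM (chromosome 12, 113418558 to 113422730, minus strand), stood at 2.65 and 5.04 TPM, from 138 and 233 counts, a ratio of 1.81 (1.46 to 2.26). Both ratios were nearly the same in the second quantification, at 4.02 and 1.77.

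The Ighm difference lay in the entry for secreted IgM. Ighm-201 has 4 exons and ends in the tail of the secreted form, and it had 17 counts in library 1 and 125 in library 2. Its ratio was 7.90 (4.74 to 14.0), and 8.98 (5.14 to 17.0) in the second quantification. Ighm-202 has 6 exons, the last 2 of which encode the membrane anchor, and it had 121 and 108 counts, a ratio of 0.959 (0.733 to 1.25). The secreted form thus held 14.0% of the Ighm TPM in library 1 and 57.03% in library 2, and 11.5% and 54.3% in the second quantification.

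**Figure D2:**
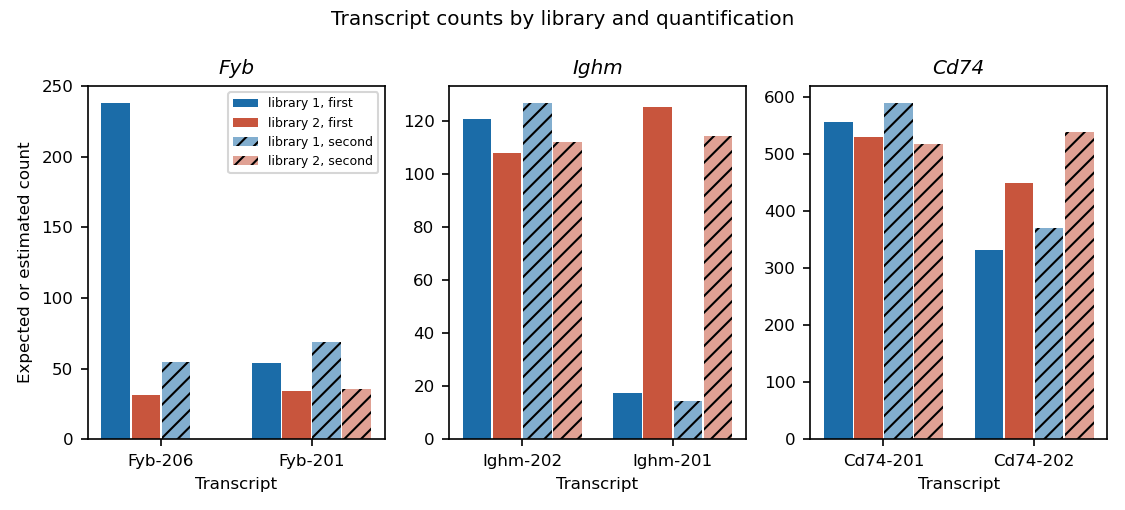
Expected counts (first quantification, plain bars) and estimated counts (second quantification, hatched bars) of 2 transcripts each of Fyb, Ighm and Cd74 in library 1 (blue) and library 2 (red). Ighm-201 has 17 and 125 counts while Ighm-202 has 121 and 108, and Fyb-206 is high in library 1 only.

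The other B lineage genes gave small counts. The joining chain Jchain, which plasma cells use to assemble IgM, had 1 count in library 1 and 19 in library 2, a ratio of 20.4 (3.24 to 848). The second quantification gave Jchain 4 and 26 counts, a ratio of 7.17 (2.49 to 28.3). Cd79b, a chain of the B cell receptor, had 6 and 19 counts, a ratio of 3.402 (1.31 to 10.4). In the second quantification Cd79b had 11 and 19, a ratio of 1.91 whose interval (0.862 to 4.43) included 1. Its partner Cd79a had 5 and 13, a ratio of 2.79 whose interval (0.935 to 10.01) included 1. Ms4a1, which encodes CD20, had 11 and 15 counts. Iglc1 had 0 and 7 counts. Markers of B cell identity gave other values: Pax5 had 21 and 8 counts, a ratio of 0.409 (0.157 to 0.962), and Ighd had 13 and 15. The IgG constant region Ighg2c, added after its value was seen, stood at 2.64 and 3.04 TPM, with a ratio of 1.16 (0.859 to 1.56). Of 9 further B cell genes, 0 passed 1 TPM in both libraries.

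Adipocyte markers moved the same way as the immunoglobulin genes. They summed to 10.6 TPM in library 1 and 39.4 in library 2. Intervals lay above 1 for 6 of 6, against 9.77% of the 10950 genes in the count range of the 39. Among them, the thermogenic uncoupling protein Ucp1 had 46 and 419 counts and the lipid droplet protein Plin1 had 83 and 383. Lymph node stroma markers did not move this way: Ccl21a, a chemokine of lymphatic vessels and lymph nodes, had 539 and 398 counts. Cxcl13 had 16 and 19 counts, and Glycam1 was at 0 in both. Thymus markers had at most 1 count in a library. The part of fat tissue in the Igkc and Ighm difference was not tested.

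**Figure D3:**
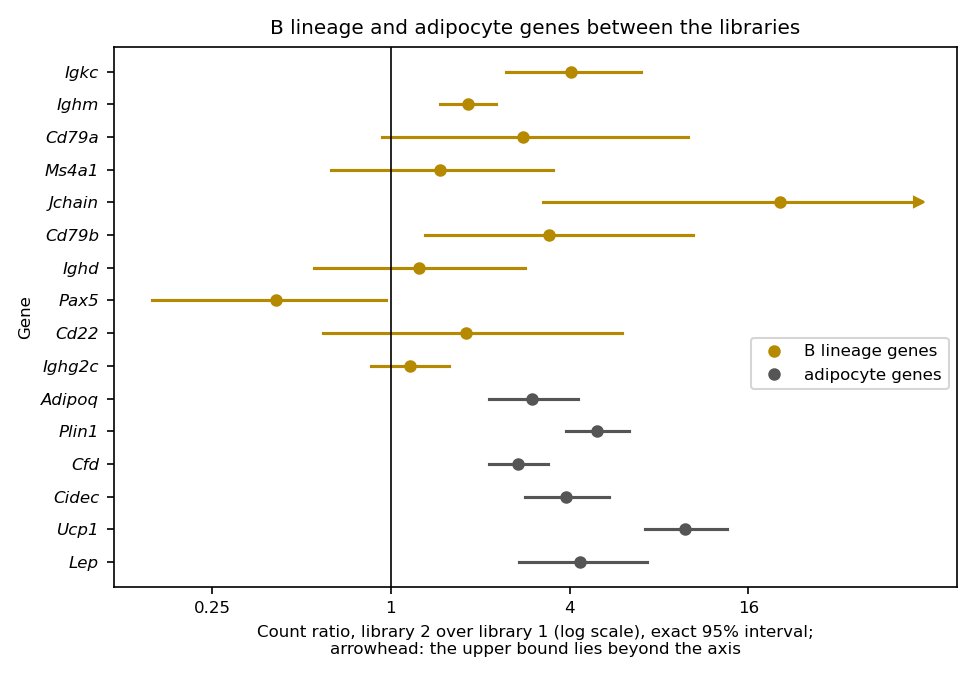
Count ratio of library 2 over library 1 on a log axis, with the exact 95% interval, in the first quantification, for 10 B lineage genes and 6 adipocyte genes. Igkc, Ighm, Jchain and Cd79b lie above 1, Pax5 below it, and all 6 adipocyte genes above it, though Cd79b at 1.91 (0.862 to 4.43) does not exclude 1 in the second quantification.

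Fyb, an adaptor of T cell and platelet signalling (chromosome 15, 6522853 to 6663313, plus strand), was the only 1 of the 33 genes with enough counts whose interval lay below 1, and most of its level did not rest on its coding transcripts. It stood at 16.4 TPM in library 1 and 3.62 in library 2, from 298 and 79 counts, a ratio of 0.285 (0.219 to 0.366). The second quantification listed 5.57 and 2.18 TPM and a ratio of 0.424 (0.303 to 0.586). The entry Fyb-206, a processed transcript of 569 bases, held 93.6% of the TPM in library 1 and 58.4% in library 2, with 238 and 31 counts. In the second quantification it held 68.8% and 0%, with 54.4 and 0 counts, and Fyb-204 led in library 2 at 50.4%. The protein-coding Fyb-201 had 54 and 34 counts, at 0.64 and 0.42 TPM, a ratio of 0.677 (0.427 to 1.06). Without Fyb-206, Fyb stood at 1.05 and 1.51 TPM from 60 and 48 counts.

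The first exon of Fyb-206 (chromosome 15, 6654511 to 6654849, plus strand) holds 339 of its bases, or 59.6%. Over 231 bases it overlaps Gm7666 on the same strand, a transcribed processed pseudogene at 60.6 and 64.5 TPM, and all 339 bases are identical to a stretch of Phb-204, an mRNA of the mitochondrial protein prohibitin. Phb stood at 130 and 146 TPM. The first 120 bases of Fyb-206, which Gm7666 and Phb-204 (bases 702 to 821) share with 0 mismatches, are shown to make the overlap visible, with no base in capitals because none differs.

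Fyb-206: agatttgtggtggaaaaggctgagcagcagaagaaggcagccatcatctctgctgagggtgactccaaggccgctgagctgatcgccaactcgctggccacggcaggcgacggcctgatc

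Phb-204: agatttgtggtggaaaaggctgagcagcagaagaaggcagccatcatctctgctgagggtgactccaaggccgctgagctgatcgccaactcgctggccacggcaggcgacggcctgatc

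Reads within this stretch cannot be assigned by sequence, so the Fyb level and its difference between the libraries are uncertain. The authors' posterior SD of the Fyb count was 36.8 in library 1 and 29.8 in library 2, against 0 for Ighm and Igkc. Without Fyb the lymphoid genes summed to 5.02 TPM in library 1 and 11.4 in library 2, and Ighm and Igkc held 4.05 and 10.6 of that, so the direction of the lymphoid sum between libraries turned, as it did in the second quantification with Fyb included.

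Over the whole set, 25 genes had at least 10 counts in a library and a mean of at least 1 TPM and were asked for a 2-fold difference in TPM + 1. It was passed by 2, or 8%, against 0.603% of 11940 genes tested. Igkc was higher in library 2, by 1.45 on the log2 scale (0.377% of all genes tested were higher), and Fyb was lower by a log2 ratio of -1.91 (0.226% were lower). The median log2 ratio was 0.04 over the 25 genes and -0.01 over all genes tested, and the median size of the ratio was 0.17 and 0.10.

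The interval of the count ratio excluded 1 for 10 of 33 genes with at least 10 counts in a library, or 30.3%. This compares with 21.1% of all 16092 genes with such counts, and with 17.6% of 10950 protein-coding and immunoglobulin constant genes with no more than 1384 counts, the highest among the 39. The interval lay above 1 for Csf1r, Adgre1, Trem2, Lyz2, Cd74, H2-Aa, H2-Ab1, Ighm and Igkc (9.77% of those 10950 genes) and below 1 for Fyb (7.87%). All 10 lay on the same side of 1 in the second quantification. The remaining 6 genes, S100a8, S100a9, Cd3e, Cd3g, Cd8a and Nkg7, had too few counts.

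**Figure D4:**
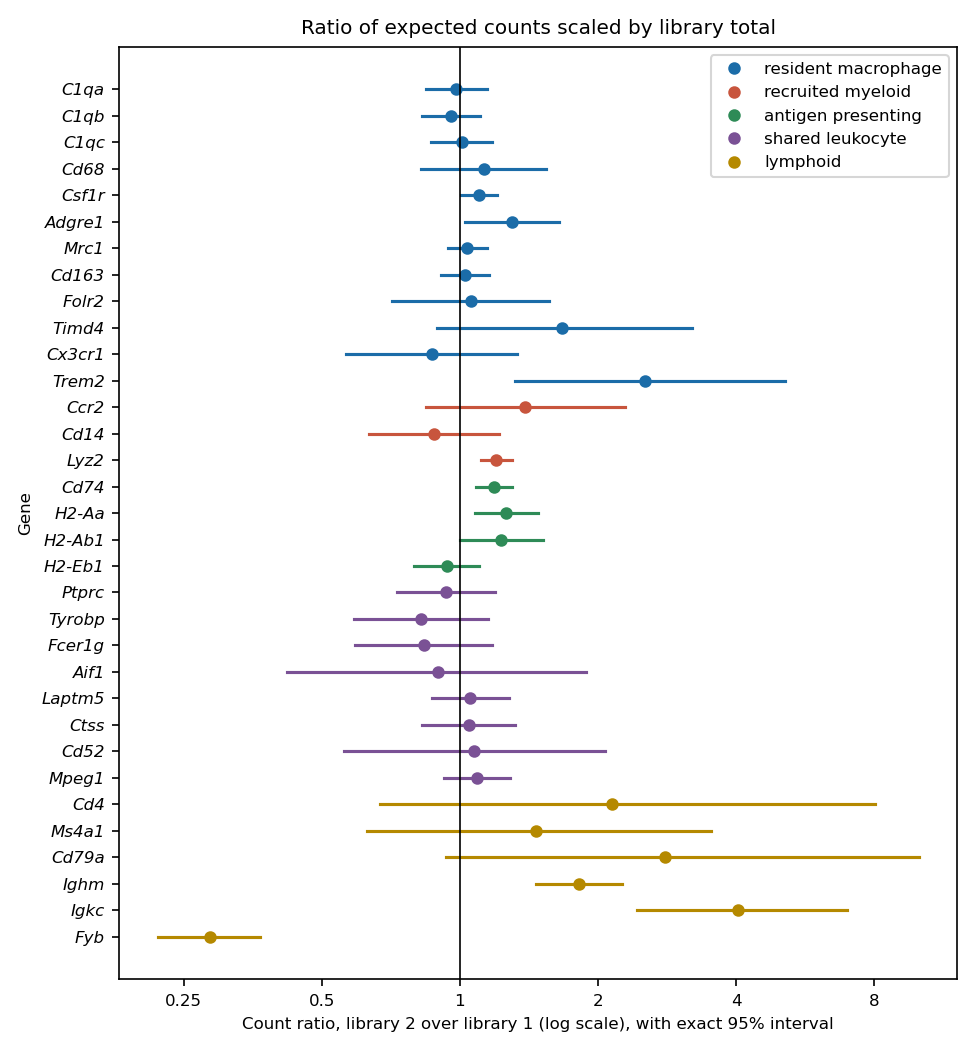
Count ratio of library 2 over library 1 on a log axis, with the exact 95% interval (lines), for the 33 genes with at least 10 counts in a library, coloured by gene group. The intervals of 10 genes exclude 1, with Igkc at 4.03 and Fyb at 0.285 at the extremes.

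By group, the interval excluded 1 for 3 of 12 resident macrophage genes, 1 of 3 recruited myeloid genes, 3 of 4 antigen presenting genes, 0 of 8 shared leukocyte genes and 3 of 6 lymphoid genes with enough counts. Cell type markers outside the set also differed: 5 of 6 endothelial markers were below 1 and 1 above, and 2 of 6 fibroblast markers were below 1. Of 6 cardiomyocyte markers, 2 were above 1 and 3 below it. Among all 16092 genes with at least 10 counts in a library, 21.1% had an interval that excluded 1 in either direction. The endothelial markers had 1263 to 7118 counts, and intervals narrow as counts rise. The part of tissue composition in the differences of the macrophage and class II genes was not tested.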

How the data were processed

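Total RNA from heart was sequenced after ribosomal RNA reduction, with 300 ng of input and a directional kit, per the labels' protocols. Reads were mapped to mm10 with GENCODE M21, per the deposited readme, and no aligner or tool version is given in the sources used here. This reference is not a CAST genome, and the effect of CAST variants on the levels was not tested. For each library there are gene and transcript tables with expected counts, TPM and FPKM, per the file headers (the first quantification), and a transcript table with estimated counts and TPM deposited by the authors (the second), summed per gene here. The deposited tables also give the percent of a gene's abundance in each transcript, and shares were computed here from TPM. FPKM as deposited served as an alternative only.

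Symbols came from the target names of the second table. The genes and lists were chosen with earlier results of these data known. With 1 group no test was made. Expected counts were rounded, and ratios carry exact (Clopper-Pearson) 95% intervals of the conditional binomial. A count of 0 allows 3 counts. The 2-fold rule used log2 of TPM + 1, a minimum of 10 counts in either library and a mean of 1 TPM or more. All 39 genes were named. Of other lists, up to 4 genes with the highest mean TPM and those at 0 were to be named, and the others named, such as Cd86, Jchain, Pax5, Mertk and Lyve1, were chosen after their values were seen. Promoter windows came from RefSeq (GRCm38.p6). No protein sequence is printed, and none from chromosome 18, where 3 of the genes lie. Steps were tested on simulated data. Software comprised scipy 1.17.1, pandas 2.3.3 and numpy 2.4.6 under Python 3.11.15, Biopython 1.88 for alignments, matplotlib 3.10.9 for plots, and R 4.3.3, with edgeR 4.0.16 and DESeq2 1.42.0 for scaling factors of an alternative only. Alternatives were the second quantification, coding transcripts only, other scalings, thresholds and pseudocounts, and each library left out. Results for some listed genes are not reported here.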

Additional observations from a re-analysis of the deposited data

How the results depend on the processing

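The summed levels of the resident macrophage and recruited myeloid genes moved by less than the SD between libraries in the second quantification and over protein-coding transcripts only. Scaling to nuclear protein-coding TPM left both sums unchanged. Leaving out 1 of 2 libraries gives the value of the other, which always lies within that SD of the mean, so it could not decide this. The antigen presenting sum of 49.9 TPM was 40.3 over protein-coding transcripts only, mainly through H2-Eb1. The shared leukocyte sum of 22.2 was 23.1 in the second quantification and 21.2 over protein-coding transcripts, beyond an SD of only 0.283. The lymphoid sum of 18.2 was 12.0 in the second quantification, 8.95 over coding and immunoglobulin constant transcripts, and 8.23 without Fyb, a choice made after seeing the data. With each library left out in turn, the sums ranged from 57.5 to 60.7 (resident macrophage), 33.5 to 38.8 (recruited myeloid), 47.4 to 52.3 (antigen presenting), 22.0 to 22.4 (shared leukocyte) and 15.1 to 21.4 (lymphoid), and 25 to 26 genes were detected. Igkc and Fyb were the 2 genes past 2-fold with a pseudocount of 0.1, in the second quantification, without the filter on low values and with FPKM. The 2-fold rule was not run on coding transcripts only or without Fyb-206. Without Fyb-206, Fyb stood at 1.05 TPM in library 1 and 1.51 in library 2. Edge cases were H2-Ab1, whose interval included 1 with TMM or DESeq2 factors (9 genes in place of 10), and S100a9, which was added without the count filter (11 genes). No paired analysis was possible because there is 1 group.

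Precision is limited by counts: 6 of the 39 genes had fewer than 10 in both libraries. Intervals cover counting error only, and n = 2 libraries under 1 donor identifier do not give the spread between animals.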

Other observations

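Some immune genes outside the 39 also differed between the libraries, and they were chosen after their values were seen. Cbr2, a carbonyl reductase found in a subset of tissue macrophages, stood at 4.84 TPM in library 1 and 13.6 in library 2. Its counts were 148 and 304, a ratio of 2.21 (exact 95% interval 1.81 to 2.70). Adipocyte markers moved the same way, and the part of fat tissue in the Cbr2 difference was not tested. The pseudogene H2-Ea-ps, which in some mouse strains encodes the alpha chain that pairs with H2-Eb1, stood at 3.26 and 5.19 TPM, from 94 and 140 counts, a ratio of 1.60 (1.22 to 2.10). The eotaxin Ccl24, a chemokine of macrophages, had 19 and 36 counts, a ratio of 2.04 (1.14 to 3.76). Mast cell genes were low in both libraries, with Mcpt4 at 19 and 13 counts and Cma1 at 11 and 8, and Fcer1a was at 0 in both.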
